A study of Danio rerio with 8 samples.

Results

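The genes described here are 10 genes of phagocytes: ncf1, cyba and cybb of the phagocyte oxidase, the transcription factor gene spi1b, the receptor gene csf1ra, the granule genes mpx and lyz, the leukocyte actin regulators coro1a and lcp1, and the macrophage gene mpeg1.1. They were found through the gene symbol of each probe set in the array's annotation. On this array 8 of the 10 had a probe set, 14 of the 15502 probe sets tested, and for cybb and mpeg1.1 no probe set carried the symbol. Expression was measured in zebrafish (Danio rerio) heart ventricles on an Affymetrix array, with 4 resected and 4 control samples. Every sample was a pool of 50 ventricles taken 2 weeks after surgery. The strain, the age and the sex of the fish, and what was done to the control animals, are not given in the sources used here. Because each pool mixes 50 hearts, the spread between arrays is a spread between pools, and differences between single fish are averaged out.

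The phagocyte oxidase is an enzyme of neutrophils and macrophages that passes electrons across a membrane to oxygen and so makes superoxide, which serves in killing microbes. Its membrane part consists of the products of cybb, which holds the catalytic centre, and cyba, its small partner, and it is switched on when soluble subunits such as those of ncf1 and ncf4 join it. Spi1b is a zebrafish form of PU.1, a transcription factor needed for the myeloid lineage, and csf1ra encodes a receptor for the growth factor on which macrophages depend. Macrophages and neutrophils enter the injured zebrafish heart and clear debris.

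Levels are RMA values in log2 units. A change is given as resected minus control on that scale, with the standard error (SE) that limma estimated. A change was called where the Benjamini-Hochberg adjusted p over all 15502 probe sets was under 0.05. Array medians lay between 5.78 and 5.82. In whole ventricles, more cells of a type and more RNA per cell cannot be told apart. Control replicate 2 stood apart from the other controls in myeloid transcripts, so the members' changes were also fitted without it. For other genes the fit without it is given where it changed a call of a gene named with its change, or as a count over the list. The tissue label was checked on heart muscle transcripts: the cardiac myosin light chain gene myl7 lay between 13.91 and 14.07 in resected pools and between 13.95 and 14.14 in control pools. As a sign of RNA quality, the 3′ minus 5′ signal of the actin control transcript, acta1, was -1.74 to -1.46 in resected and -2.30 to -1.98 in control arrays. The groups did not overlap on this signal. That of GAPDH was 0.80 to 1.05 in resected and 0.77 to 1.07 in control arrays, where they did. The part of RNA quality in the results was not tested.

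Of the 14 probe sets, 3 were higher in resected ventricles, those of ncf1 and csf1ra and the brighter of spi1b, and 0 were lower. That is 21.4% of them, where 4.28% of all probe sets tested were called higher and 2.57% lower. The members were chosen with earlier results of these data known, so these shares describe them and are no test of an excess. Before adjustment, 7 of the 14 had a p under 0.05, as had 3584 of all 15502 probe sets in either direction. The median change was 0.66 over the 14 probe sets and -0.05 over all probe sets. For 2 of the 14 (14.3%), those of ncf1 and csf1ra, the resected and control values did not overlap, against 14.3% of all probe sets in either direction and 6.95% in the higher direction. The first of these shares equals that of the members.

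Without control replicate 2, 8 of the 14 probe sets were called higher (57.1%) and 0 lower, where 6.13% of all probe sets were called higher and 4.24% lower. Values did not overlap for 9 of the 14 (64.3%), against 23.5% of all probe sets in either direction. The resected values were the higher ones for 8 of the 9 and the lower ones for 1, the dimmer coro1a probe set. That array was left out because it was high in these transcripts, and it was the highest control for 9 of the 14 probe sets, so the larger changes follow from the choice of array and are no support for a change of the members. The added calls were those of both cyba probe sets, the dimmer spi1b probe set, the brighter coro1a probe set and lcp1. The count of calls fell to 1, that of ncf1, without resected replicate 2 or without resected replicate 3. Over all probe sets the count of calls in either direction fell from 1062 to 545 and to 604 in these fits.

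**Figure D1:**
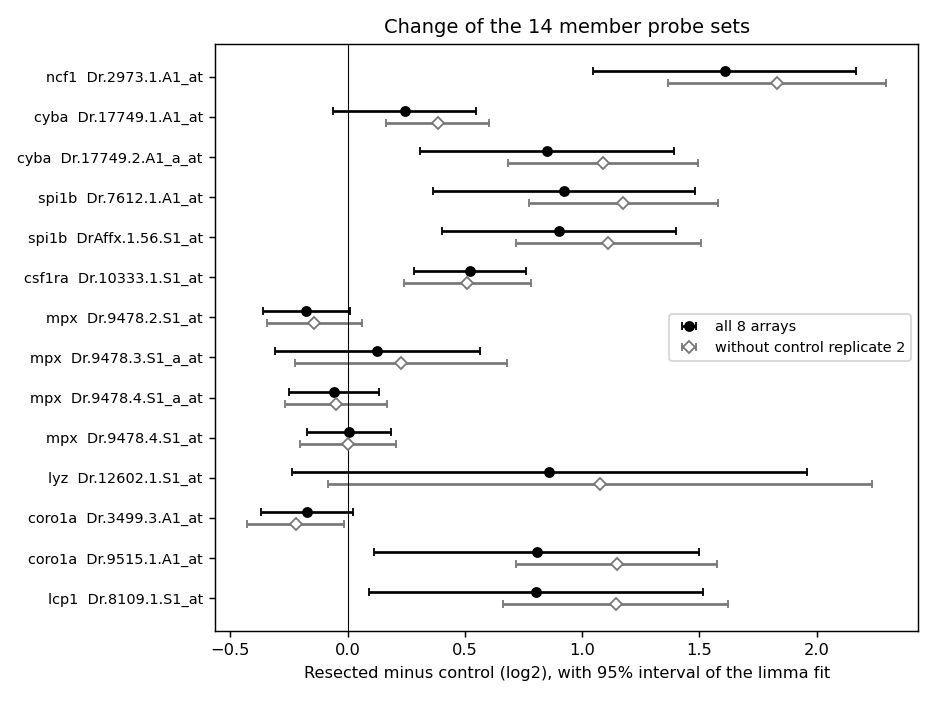
Change of each of the 14 probe sets (resected minus control, log2) with the 95% interval of the limma fit, from all 8 arrays (filled circles) and without control replicate 2 (open diamonds). The change of ncf1 was 1.61 with all arrays and 1.83 without that control, while the 4 mpx probe sets lay near 0 in both fits.

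Among the oxidase genes, ncf1, which encodes the soluble organiser subunit, had the largest change of all the members. It had values of 6.11, 7.03, 6.33 and 6.53 in resected replicates 1 to 4, against 5.0, 5.57, 4.50 and 4.51 in control replicates 1 to 4. Every resected pool lay above every control pool, and control replicate 2 was the highest control. The mean was 6.50 ± 0.39 in resected and 4.89 ± 0.51 in control ventricles (SD, n = 4 each), a change of 1.61 ± 0.25 (SE), or 3.05-fold (adjusted p = 0.00464, limma). Without control replicate 2 the change was 1.83 ± 0.21 (adjusted p = 0.000832), and the call held when any 1 of the 8 arrays was left out, with a highest adjusted p of 0.0202. It ended without moderation of the variance (adjusted p = 0.0715).

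For cyba, the small membrane subunit, 2 probe sets were present, and neither was called with all arrays. The brighter, which can match several transcripts of the gene, had values of 8.0, 8.84, 8.15 and 8.17 in resected replicates 1 to 4, against 7.19, 8.16, 7.09 and 7.30 in control replicates 1 to 4. Control replicate 2 lay within the resected range, above 2 of the 4 resected pools, while the other controls lay below all of them. The change was 0.85 ± 0.24 (adjusted p = 0.0654, limma), and 1.09 ± 0.18 without control replicate 2 (adjusted p = 0.00538). The dimmer cyba probe set had values of 6.32, 6.45, 6.37 and 6.37 in resected pools, against 5.88, 6.56, 5.93 and 6.18 in control pools. Here control replicate 2 lay above every resected pool. Its change was 0.24 ± 0.14 (adjusted p = 0.322), and 0.38 ± 0.10 without that control (adjusted p = 0.036). The 2 probe sets of cyba thus pointed the same way and differed in size.

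Ncf4, the gene of a soluble subunit, was also measured and lay low. Its values were 4.46 to 4.58 in resected pools and 4.22 to 4.43 in control pools. The groups did not overlap, but the change of 0.19 ± 0.08 was not called (adjusted p = 0.174, limma).

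The transcription factor gene spi1b was measured by 2 probe sets that moved alike. The brighter had values of 7.50, 8.30, 7.70 and 7.57 in resected replicates 1 to 4, against 6.73, 7.50, 6.60 and 6.63 in control replicates 1 to 4. Control replicate 2 reached the lowest resected pool, and the other controls lay below every resected pool. It rose by 0.90 ± 0.22 (SE), or 1.87-fold (adjusted p = 0.0398, limma), and by 1.11 ± 0.18 without control replicate 2 (adjusted p = 0.0044). The dimmer probe set was at 5.41 to 6.30 in resected pools, against 4.54 to 5.62 in control pools, with a change of 0.92 ± 0.25 (adjusted p = 0.0554) and of 1.18 ± 0.18 without control replicate 2 (adjusted p = 0.00373). The call of the brighter probe set ended when any 1 array other than control replicate 2 was left out (adjusted p from 0.0515 to 0.111) and with a robust variance prior (0.0532).

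Of the 7 other myeloid transcription factor genes measured, cebpd fell and 6 were not called, while 3.0% of all genes were called lower. Cebpd encodes a C/EBP factor with roles also outside blood cells. It was at 10.13 to 10.34 in resected pools, against 11.42, 10.50, 11.36 and 11.29 in control replicates 1 to 4. It was lower in every resected pool than in any control, and control replicate 2 was the control nearest to the resected range. These values are of the brighter of its 2 probe sets, and the dimmer is not described here. The change of cebpd was -0.89 ± 0.18 (adjusted p = 0.017, limma), and -1.10 without control replicate 2 (adjusted p = 0.000133). The larger change without that array follows from the choice of array. The call ended without resected replicate 2 (0.057) or control replicate 4 (0.0586). Cebpa, a factor of granulocyte development, had a change of 0.64 ± 0.22 (adjusted p = 0.108), and was called without resected replicate 1 (0.83, adjusted p = 0.0355). Cebpb, its relative, had a change of 0.30 ± 0.20 (0.399). The remaining changes were -0.15 for runx3, -0.07 for cebp1, -0.07 for myb and -0.02 for runx1. The median over the 7 genes was -0.07, against -0.04 over all 8793 genes.

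The receptor gene csf1ra, which in zebrafish is also used by yellow pigment cells, differed from the other changed members in control replicate 2. It had values of 5.52, 5.93, 5.92 and 5.95 in resected replicates 1 to 4, against 5.21, 5.27, 5.36 and 5.39 in control replicates 1 to 4. The groups did not overlap, control replicate 2 lay inside the range of the other controls, and resected replicate 1 was the resected pool nearest to the controls. The rise was 0.52 ± 0.11 (SE), or 1.44-fold (adjusted p = 0.0178, limma), and 0.51 ± 0.12 without control replicate 2 (adjusted p = 0.0272). The call ended without resected replicate 2 (0.0624) or resected replicate 3 (0.0592). Its ligand gene csf1b was dim, at 2.80 to 3.22 in resected and 3.22 to 3.25 in control pools, narrowly apart. Its change was -0.28 ± 0.10 (adjusted p = 0.108), and it was called without resected replicate 3 (-0.37, adjusted p = 0.0397). The related receptor gene kita had a change of -0.07 ± 0.11.

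Coro1a and lcp1 encode a coronin and a plastin that organise actin in white blood cells and are used as general leukocyte markers in zebrafish. The brighter coro1a probe set had values of 9.04, 9.81, 9.23 and 9.02 in resected replicates 1 to 4, against 7.87, 9.50, 8.31 and 8.22 in control replicates 1 to 4. Lcp1 had values of 8.88, 9.73, 9.32 and 9.12 in resected replicates 1 to 4, against 7.69, 9.47, 8.32 and 8.36 in control replicates 1 to 4. For both genes control replicate 2 lay above all resected pools but resected replicate 2, and the other controls lay below every resected pool.

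With all arrays neither gene was called. The change was 0.81 ± 0.31 for the brighter coro1a probe set (adjusted p = 0.154, limma) and 0.81 ± 0.32 for lcp1 (adjusted p = 0.165). Both were called without control replicate 2, coro1a at 1.15 ± 0.19 (adjusted p = 0.00574) and lcp1 at 1.14 ± 0.21 (adjusted p = 0.0103). A dimmer coro1a probe set went the other way: it was at 4.34 to 4.51 in resected and 4.45 to 4.78 in control pools, a change of -0.17 ± 0.09 that was not called (adjusted p = 0.269). The probe sets of coro1a therefore disagreed, and the mean of both gave a change of 0.32 (adjusted p = 0.241).

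Neither of the granule genes was called, and the difference between them was not tested. Mpx encodes myeloperoxidase, an enzyme of neutrophil granules, and none of its 4 probe sets was called. The brightest had values of 6.13, 6.0, 6.04 and 6.19 in resected replicates 1 to 4, against 6.22, 6.17, 5.98 and 6.22 in control replicates 1 to 4. The groups overlapped throughout. Its change was -0.06 ± 0.09 (adjusted p = 0.726, limma), with a 95% interval from -0.25 to 0.13. The other mpx probe sets had changes of 0.13 ± 0.20, 0.01 ± 0.08 and -0.18 ± 0.08, with adjusted p from 0.241 to 0.973. Limma called 0 of the 4 without control replicate 2 as well (adjusted p from 0.362 to 0.986). The dimmest of the 4, at 2.63 to 2.89 in resected and 2.72 to 2.80 in control pools, lay higher than 3.84% of all probe sets. RMA gives no detection call, so whether a probe set this dim measured the transcript cannot be told.

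Lyz encodes lysozyme, an enzyme of neutrophils and macrophages that breaks bacterial cell walls, and it was the most variable member. It had values of 10.26, 9.93, 9.35 and 8.45 in resected replicates 1 to 4, against 8.99, 9.29, 7.13 and 9.14 in control replicates 1 to 4. The groups overlapped: resected replicate 4 lay below 3 of the controls, and control replicate 3 was the lowest of all 8 pools. The mean was 9.50 ± 0.80 in resected and 8.64 ± 1.01 in control ventricles (SD, n = 4 each). The change was 0.86 ± 0.49 (adjusted p = 0.328, limma) with a 95% interval from -0.24 to 1.96, so a change of the size seen for ncf1 lay within it. It was 1.08 ± 0.52 without control replicate 2 (adjusted p = 0.225) and 0.36 without control replicate 3 (0.572), and leaving out any 1 other array gave 0.61 to 1.21.

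**Figure D2:**
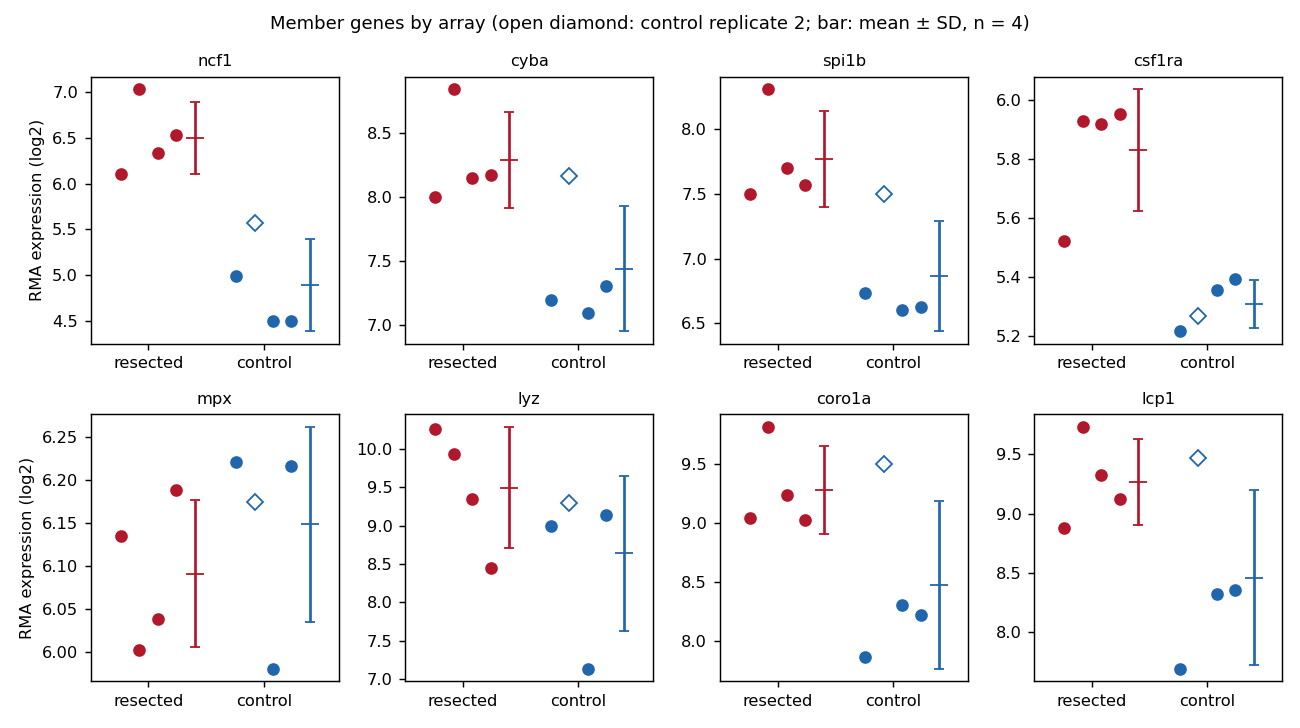
RMA expression (log2) of the 8 measured genes in each resected and control pool, by the brightest probe set of the gene; each panel has its own axis, points run from replicate 1 to 4 within a group, the open diamond is control replicate 2, and bars show the mean ± SD (n = 4). For coro1a and lcp1 the diamond lies among the resected pools, at 9.50 and 9.47, while for csf1ra it lies among the controls, at 5.27.

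Control replicate 2 exceeded the mean of the other 3 controls by different amounts in the 8 genes. The excess was 1.37 for coro1a, 1.35 for lcp1, 0.96 for cyba, 0.90 for ncf1, 0.87 for lyz and 0.85 for spi1b. It was 0.04 for mpx and -0.05 for csf1ra. Over all 8793 genes the median of this difference was -0.02, and 60 genes (0.682%) exceeded 1, with coro1a and lcp1 among them. Control replicate 2 was the highest of the 4 controls in 6 of the 8 genes, and in 21.4% of all genes. Among resected pools, replicate 2 was the highest for ncf1, cyba, spi1b, coro1a and lcp1, but not for csf1ra, mpx or lyz.

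The same array was high in many other leukocyte genes, but not in all the myeloid lists. It was the highest control for 1 of the 7 other transcription factor genes. It was not the highest for csf1b or the related receptor gene kita, both dim, nor for ncf4, where it stood at -0.07 from the other controls. Of 10 macrophage genes measured, mpeg1.1 not being among them, control replicate 2 was the highest control for 7 and exceeded the other controls by over 1 for 5. Named after their values were seen, these included the scavenger receptor gene marco (1.85), the cysteine protease gene ctss2.1 (1.72), the progranulin gene grna (1.64) and the complement gene c1qc (1.44). Control replicate 2 was not the highest control for apoeb (-0.63 from the other controls), ccl34b.1 (-0.03) or lgmn (0.05), also named after their values were seen. The mean level of the 10 genes was 8.49 to 9.29 in resected pools, against 8.97 in control replicate 2 and 7.93 to 8.25 in the other controls. Of 13 further leukocyte genes it was the highest control for 12. Their mean level was 7.35 to 7.95 in resected pools, against 7.53 in control replicate 2 and 6.65 to 6.85 in the other controls. The mean over 11 erythrocyte genes was 8.40 to 9.15 in resected pools and 7.6 in control replicate 2, within the 7.54 to 7.61 of the other controls. For 7 heart muscle genes the mean level was 13.10 to 13.26 in resected pools, against 13.07 in control replicate 2 and 13.11 to 13.18 in the other controls. The part of leukocyte content in the change of any single member was not tested.

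**Figure D3:**
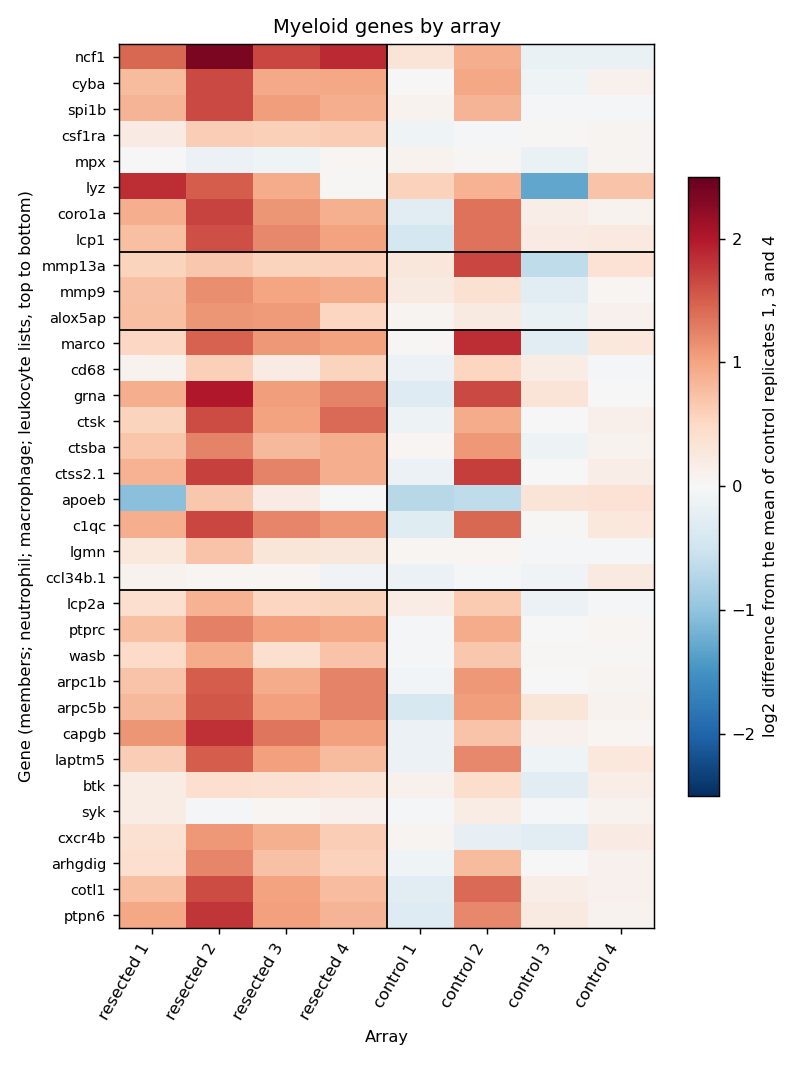
Difference of each array from the mean of control replicates 1, 3 and 4 (log2, colour) for the 8 members and for the neutrophil, macrophage and leukocyte genes measured; columns are the 4 resected and the 4 control pools. Control replicate 2 stands at 1.37 for coro1a and 1.85 for marco, and at -0.05 for csf1ra.

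To set the members beside a general leukocyte transcript, each was taken relative to ptprc in the same array. Ptprc encodes CD45, a phosphatase on the surface of leukocytes, and was chosen after the data had been seen. It was itself at 7.68 to 8.19 in resected pools, against 6.88, 7.86, 6.92 and 6.97 in control replicates 1 to 4 (change 0.77 ± 0.21, adjusted p = 0.0515, limma), and was called without control replicate 2 (1.0, adjusted p = 0.00109). Only differences between groups are read from these ratios, since levels of different probe sets cannot be compared.

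Relative to ptprc, ncf1 was at -1.58, -1.16, -1.62 and -1.36 in resected replicates 1 to 4, against -1.88, -2.29, -2.42 and -2.47 in control replicates 1 to 4. The groups did not overlap, and control replicate 2 lay within the range of the other controls. The ratio of ncf1 to ptprc was higher in resected pools by 0.84, and by 0.83 without control replicate 2. The exact two-sided permutation p was 0.0286, the smallest that 70 splits of the arrays can give. It was the smallest of 8 such comparisons and is not adjusted for them. Without resected replicate 1, 2 or 4 it was 0.0571.

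Of the other members, mpx had a ratio that differed by -0.83 between resected and control pools (exact permutation p = 0.0571, unadjusted) and by -1.05 without control replicate 2. The ratio of csf1ra differed by -0.25 (exact permutation p = 0.371, unadjusted), and by -0.49 without that control. Without it the exact permutation p was 0.0286 for both, unadjusted, the smallest that 4 against 3 arrays can give. That comparison was chosen after that array's values had been seen. Control replicate 2 stood 0.93 above the mean of the other controls for ptprc, against 0.04 for mpx and -0.05 for csf1ra. The larger differences without it follow from the choice of array, and these p are no support for a difference. For csf1ra all 4 resected pools lay below control replicates 1, 3 and 4, and control replicate 2 lay below all other pools. For cyba, spi1b, lyz, coro1a and lcp1 the ratio differed by 0.03 to 0.13 between resected and control pools, and the groups overlapped. The ratio alone does not show which of the transcripts in it changed. Taken singly, ptprc changed by 0.77, which was not called, mpx by -0.06 and csf1ra by 0.52. The part of each transcript in the ratios was not tested.

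**Figure D4:**
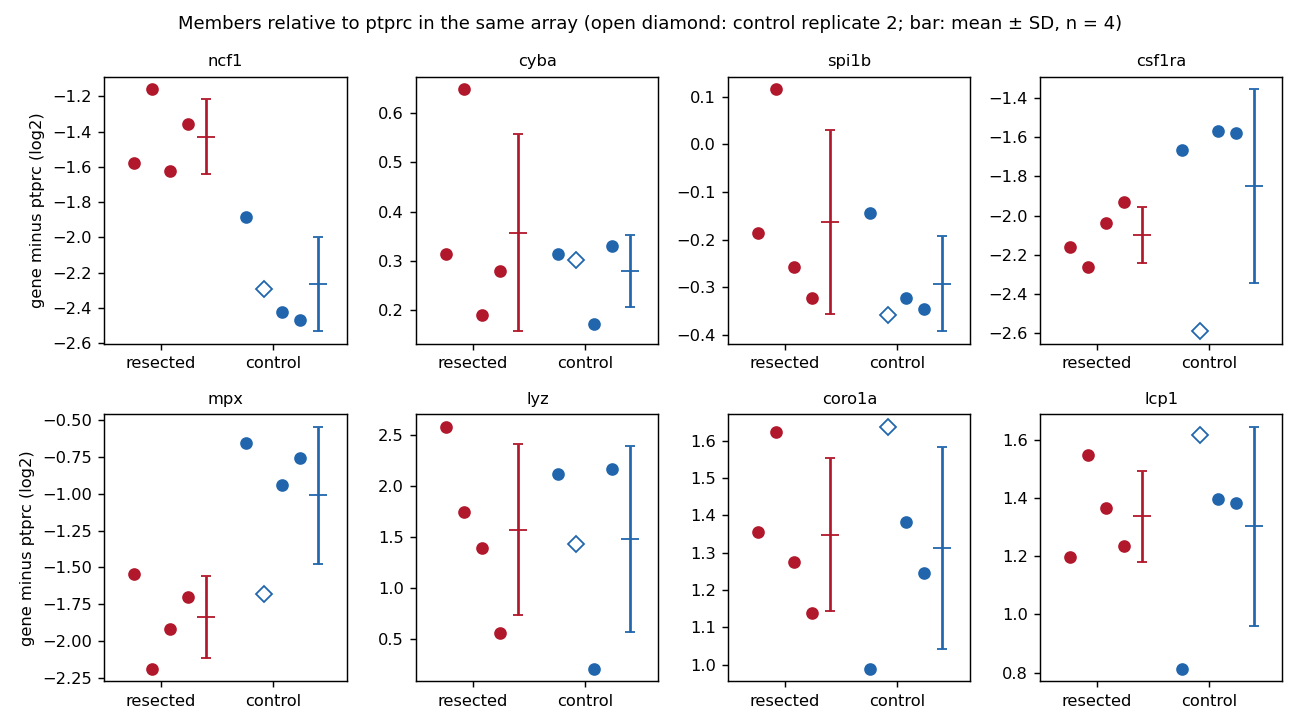
Difference between each member and ptprc in the same array (log2) in resected and control pools; each panel has its own axis, points run from replicate 1 to 4, the open diamond is control replicate 2, and bars show the mean ± SD (n = 4). For ncf1 all resected pools lie at -1.62 or above and all controls at -1.88 or below; for coro1a and lcp1 the groups overlap.

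Other genes of phagocytes were counted without the members. The marker lists, here and for other cells below, were also chosen with earlier results of these data known. Their counts are therefore no test of an excess over all genes. Only 3 of the 11 other genes on the neutrophil list were measured, so neutrophils were thinly covered. Of these 3 genes, 2 rose and 0 fell, while 5.05% of all genes were called higher. They were mmp9, a matrix protease, at 6.46 to 6.89 in resected and 5.44 to 6.11 in control pools (0.86 ± 0.14, adjusted p = 0.00638, limma), and alox5ap, which takes part in leukotriene synthesis, at 5.29 to 5.85 in resected and 4.58 to 4.98 in control pools (0.81 ± 0.14, adjusted p = 0.00648). Mmp9 is also made by cells other than neutrophils. The other one, mmp13a, a collagenase named after its values were seen, was at 7.28 to 7.41 in resected pools, against 7.01, 8.40, 6.09 and 7.08 in control replicates 1 to 4.

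Of the 10 macrophage genes limma called 0, with 5 higher before adjustment (p under 0.05). Of all 15502 probe sets, 3584 had such a p in either direction. The changes with the smallest p were those of lgmn, a lysosomal protease gene (0.38 ± 0.11, adjusted p = 0.0623), and of ctsk, the gene of the protease cathepsin K (0.92 ± 0.26, adjusted p = 0.0646). Ctsk was called without control replicate 2 (1.15, adjusted p = 0.0106) and without resected replicate 1 (1.12, adjusted p = 0.0341). When control replicate 2 was left out, 6 rose and 0 fell, and of all genes 7.37% were called higher and 4.95% lower. That array was the highest control for 7 of the 10, so the added calls follow from the choice of array and are no support for a change. The median change was 0.60 with all arrays and 0.97 without that control.

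Of the 13 further leukocyte genes, 2 rose and 0 fell, where 5.05% of all genes were called higher. Without control replicate 2, 11 rose, where 7.37% of all genes did. That array was the highest control for 12 of the 13, so the added calls follow from the choice of array and are no support for a change. The actin-capping gene capgb rose by 1.15 ± 0.21 (adjusted p = 0.00901, limma), with values of 6.12 to 6.91 in resected and 4.94 to 5.8 in control pools. The chemokine receptor gene cxcr4b rose by 0.79 ± 0.16 (adjusted p = 0.0155), with values of 7.58 to 8.28 in resected and 6.93 to 7.40 in control pools. For cxcr4b, as for csf1ra, control replicate 2 was not above the other controls (-0.20). Its call ended without resected replicate 3 (0.0518). The median change of the 13 genes was 0.69, against -0.04 over all genes.

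Markers of other cells that a ventricle can hold were set beside these. Only 5 of the 17 genes on the lymphocyte list were measured, without lck, cd8a or ighm, so lymphocytes were thinly covered. Of these 5 genes 0 were called by limma. Before adjustment 2 had a p under 0.05, 1 in each direction, as had 3584 of all 15502 probe sets in either direction. The T cell gene cd28 (0.30 ± 0.09, adjusted p = 0.0851) and the lymphocyte factor gene gata3 (-0.36 ± 0.12, adjusted p = 0.11) had the lowest p of the 5 genes. The 5 genes' mean level was 5.48 to 5.56 in resected and 5.53 to 5.71 in control pools. Of 11 erythrocyte genes 8 rose and 0 fell (7 rose without control replicate 2), among them cahz, a carbonic anhydrase gene (1.89 ± 0.20). Of 5 genes on the thrombocyte list 2 rose, fn1b (2.1 ± 0.14) and f13a1b (0.91 ± 0.17). The other 3, named after their values were seen, were not called: itga2b (0.04 ± 0.17), gp1bb (0.24 ± 0.10) and thbs1b (0.35 ± 0.12). Fn1b is a fibronectin gene, and the fibronectin gene fn1a stood on the fibroblast list (3.48 ± 0.15). The rise of fn1b therefore cannot be read as one of thrombocytes. Over all genes, 5.05% were called higher. Of 7 heart muscle genes myh7 rose (0.83 ± 0.11). Of 5 endothelial genes cldn5a rose (0.42 ± 0.08), but it was dim, at 3.81 to 4.01 in resected and 3.38 to 3.58 in control pools. The other 4 endothelial genes were not called with all arrays, and the median change over the 5 was -0.08. The endothelial receptor gene kdrl, named after its values were seen, had a change of -0.41 ± 0.15 (adjusted p = 0.126). It was called lower without control replicate 2 (-0.54, adjusted p = 0.0186). That array was its lowest control, at 9.52 against 9.84 to 10.28 in the other controls. The added call of kdrl therefore follows from the choice of array and is no support for a change. All 4 fibroblast genes measured rose, led by postnb (3.74 ± 0.12). The part of red cell, thrombocyte or fibroblast content in the members' changes was not tested.

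**Figure D5:**
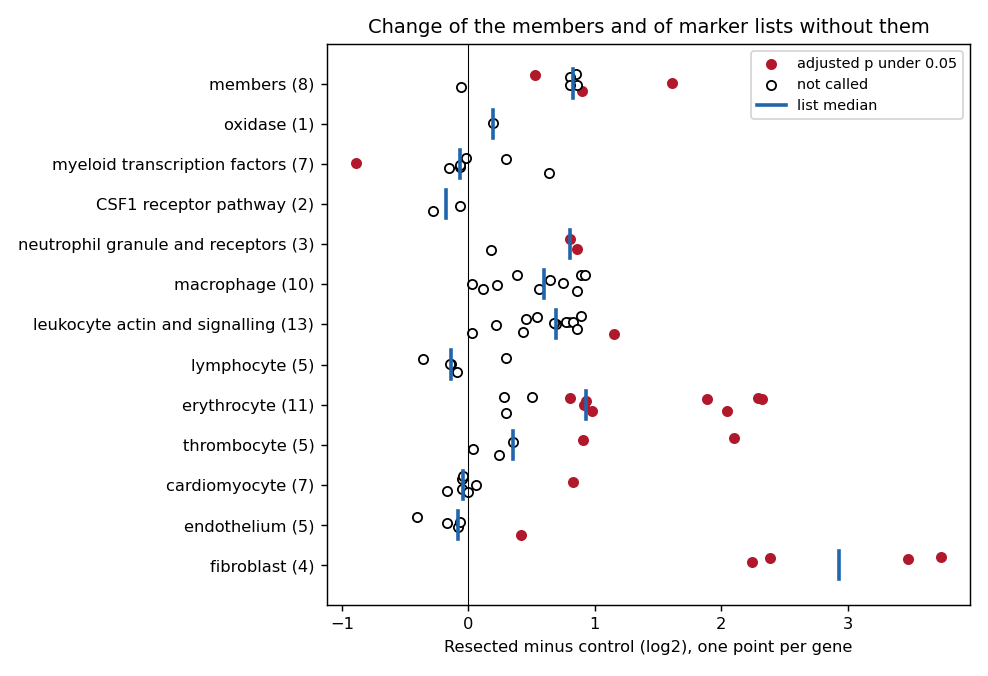
Change of each gene (resected minus control, log2) for the 8 members and for marker lists with the members left out; filled points passed an adjusted p of 0.05, open points did not, vertical bars are list medians, and the number of measured genes is in brackets. The members' median was 0.83, that of the 13 leukocyte genes 0.69 and that of the 5 lymphocyte genes measured, of 17 listed, -0.14.

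Within groups, the members did not vary together as 1 block. After each group's mean was taken off, cyba correlated with the mean of the other measured members at r = 0.96 over the 8 arrays, spi1b at 0.94, coro1a at 0.86, ncf1 at 0.80 and lcp1 at 0.78. Lyz was at 0.31, csf1ra at 0.00 and mpx at -0.01. Without control replicate 2 the values over 7 arrays were 0.91 for cyba, 0.86 for spi1b, 0.62 for coro1a, 0.57 for ncf1 and 0.42 for lcp1. These describe arrays that share 1 normalization and carry no test.

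Among 8733 other genes, the 5 whose deviations were most like the members' mean were LOC100151335 (r = 0.98), zgc:64051 (0.98), acp5a (0.98), slc35a4 (0.98) and cd63 (0.98), over 8 arrays. Their r over the 7 arrays without control replicate 2 was 0.93 to 0.98. Acp5a encodes a tartrate-resistant acid phosphatase and cd63 a tetraspanin of lysosomes. With all arrays limma called 0 of the 5 between resected and control pools. Before adjustment 2 had a p under 0.05, as had 3584 of all 15502 probe sets. The changes were 0.95 ± 0.30 for zgc:64051 (adjusted p = 0.0898), 0.49 ± 0.39 for LOC100151335 (0.484) and 0.37 ± 0.12 for cd63 (0.0897). They were 0.07 ± 0.21 for acp5a (0.874) and -0.02 ± 0.12 for slc35a4 (0.924). Without control replicate 2, zgc:64051 (1.28, adjusted p = 0.00257), LOC100151335 (0.92, 0.0304) and cd63 (0.47, 0.0169) were called higher. That array held the largest deviation (0.59) of the members' mean, on which these genes were ranked. The larger changes therefore follow from the choice of array and are no support for a change of these genes. In all, 70 genes (0.802%) had an r over 0.9.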

How the data were processed

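The deposited table holds log2 values of 15617 probe sets for 8 arrays; per the submitters' processing notes the authors used affy and RMA, a background correction, quantile normalization and probe summary, without versions. No genome build is given in the sources used here, so no coordinates are printed. Columns were matched to samples by accession, with 0 left unused. The 115 control probe sets were left out, which left 15502. Symbols came from the platform annotation, updated by Entrez identifier through a GRCz12tu gene table (1 replaced): 10795 probe sets had 1 symbol, 135 several and 4572 none. Where a gene had several probe sets, the brightest by its mean over the 8 arrays stood for it. Outside the members, the other probe sets of such a gene are not described.

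The comparison was fitted by lmFit and eBayes of limma 3.58.1 under R 4.3.3, two-sided and without a replicate term, and the function was tested on simulated data. Alternatives were a replicate block, other variance priors, no moderation, array weights, further normalization, a filter on dim probe sets, averaging the probe sets of a gene and leaving out each array. Ratios to ptprc were compared by exact permutation. Replicate numbers were not taken to pair samples.

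The genes and the 12 marker lists were chosen with earlier results of these data known. All members are named, with every measured gene of the oxidase, transcription factor and CSF1 receptor lists. Other lists give up to 4 called genes with the smallest p, or 2 where none was called; others are said to have been named after their values were seen. The 5 genes most like the members were ranked by Pearson correlation of deviations from group means. The 8 arrays limit the precision. One listed item is not reported here.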

Additional observations from a re-analysis of the deposited data

Results flagged for a closer look

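In 88 groups of 4 arrays (44 probe sets), 7 held a value far from the other 3, where chance gives about 1 in 20. Control replicate 2 was the highest control for both spi1b probe sets, at 5.62 (next control 4.70) and 7.50 (next 6.73), and the lowest control for cebpd, at 10.50 (next 11.29). Resected replicate 1 was the lowest resected pool for csf1ra, at 5.52 (next 5.92). Control replicate 3 was the lowest control for lyz, at 7.13 (next 8.99). Resected replicate 2 was the lowest resected pool for kita, at 3.53 (next 3.90), and the highest for lgmn, at 9.22 (next 8.80).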

How the results depend on the processing

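The count of changed probe sets was 1062, and 299 without moderation of the variance; it ranged from 545 to 1608 when 1 array was left out. The 3 changed member probe sets became 7 with a replicate block, where 1026 of all 15502 probe sets were called, 714 of them higher. They became 1 of 7 left by the filter on dim probe sets, which removed ncf1 and csf1ra. Without moderation in limma they became 0, with 6 at an unadjusted p under 0.05, as were 3157 of all probe sets. The count of changed member probe sets ranged from 1 to 8 when 1 array was left out. Under the replicate block, cyba (adjusted p = 0.00293), the dimmer spi1b (0.00315), coro1a (0.016), lcp1 (0.0212), cebpa (0.00663) and ctsk (0.0063) were also called, and with an intensity trend the dimmer spi1b (0.0491). The replicate numbers are not known to pair samples: same-numbered arrays deviated with r = 0.12, 0.14, -0.01 and -0.16, so this is not evidence from the design. Directions turned only for values that had not passed the test. When 1 array was left out, an mpx probe set ranged from -0.082 to 0.238, the dimmest mpx probe set from -0.0345 to 0.0525, cebp1 from -0.127 to 0.0516, runx1 from -0.1003 to 0.0755 and kita from -0.116 to 0.0323. Cebp1 was at 0.000753 without resected replicate 3. With array weights runx1 was at 0.00655 and with quantile normalization at 0.0127. Relative to ptprc, the same step gave cyba -0.0189 to 0.134, lyz -0.335 to 0.426, coro1a -0.0736 to 0.143 and lcp1 -0.129 to 0.139. Depth in the sense of signal over background is not recorded in RMA values.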
